A study of Mus musculus with 24 samples.

Results

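The SR and hnRNP splicing factors are RNA-binding proteins that steer the splicing of other transcripts. They were taken as every protein-coding gene whose mouse symbol begins with Srsf and a digit or with Hnrnp, pseudogenes left out. This gave 31 genes, 11 SR and 20 hnRNP, among 15878 gene identifiers with values. The RNA came from microglia, the resident macrophages of the brain, sorted by flow cytometry from wild-type (WT) mice and amplified by Smart-seq2, in 24 libraries of 4 groups with 6 libraries each, all on day 28. Sham mice, the controls of the operation, were given PBS, and BCAS mice (bilateral carotid artery stenosis, which lowers blood flow to the forebrain) were given PBS. The ND-Exos and WD-Exos groups were BCAS mice that received exosomes, small vesicles that cells release, by tail vein at 100 µg every 3 days. The series title calls the exosomes foam cell-derived, and the labels do not spell out ND and WD. The BCAS operation is thus shared by 3 of the 4 groups. The labels give no age or sex, and they do not say that the 6 libraries of a group came from separate mice. The p-values thus set group differences against the spread between these libraries, which may in part be technical.

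SR proteins carry RNA recognition motifs and a tail rich in arginine and serine. They bind exons, recruit the spliceosome to nearby splice sites, and are switched by phosphorylation through SRPK and CLK kinases. Members of the hnRNP families coat nascent RNA and often act against SR proteins at the same exon, and many also bind messenger RNA outside the nucleus. In macrophages, splicing factors of both kinds are known to shape the transcripts of the innate immune response. Many SR and hnRNP genes limit their own level through an exon that sends the transcript to decay. The deposited values are counts per gene, so they show neither splice forms nor protein phosphorylation.

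Library totals lay between 24277722 and 28892423 counts, with 8515 to 10794 genes detected per library. Defining microglial markers were abundant throughout: the 9 fixed markers summed to 29976 to 56555 CPM (counts scaled to a common total, on the TMM scale of edgeR) in the 24 libraries. Of the markers of other cells, those of oligodendrocytes summed to 8503 CPM in Sham replicate 4, 5610 in WD-Exos replicate 6 and 4699 in ND-Exos replicate 3, against a median of 307 over all libraries. In Sham, other lists also had a library far above the rest: markers of mural cells summed to 981 CPM in replicate 2, those of endothelium to 833 CPM in replicate 3 and those of neurons to 328 CPM in replicate 1, against medians of 0.0425, 35.8 and 5.29 CPM over all libraries. Border macrophage markers summed to 73.8 to 1567 CPM, highest in Sham replicate 1, and those of T, NK and B cells to at most 1.88 CPM. With bulk RNA, fewer cells of a type and less RNA per cell cannot be told apart.

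Of the 31 members 30 were detected, and hnRNP transcripts outweighed SR transcripts. Summed over the 20 genes, hnRNP transcripts ranged from 2759.7 to 3319 CPM in Sham (median 2942) and from 2978 to 3840.0 CPM in BCAS (median 3302), and from 2428 to 3364 CPM in ND-Exos (median 2950.2) and from 2931 to 3471 CPM in WD-Exos (median 3056). The 11 SR genes summed to a range from 694 to 984 CPM in Sham (median 849) and from 515 to 1791 CPM in BCAS (median 835), and from 751 to 1116 CPM in ND-Exos (median 845) and from 670.1 to 1227 CPM in WD-Exos (median 986). The groups overlapped in both sums, and the SR sum of 1791 CPM belonged to BCAS replicate 2, whose next neighbour in the group stood at 908 CPM.

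Per kilobase of transcript, which allows levels to be compared between genes, Hnrnpk stood highest at 373 CPM per kb (mean of 24 libraries). It encodes a protein with KH domains that binds C-rich RNA. Hnrnpf followed at 230 CPM per kb, and its protein binds runs of G. Hnrnpa2b1, of the A/B family that binds purine-rich and UAG-like motifs, stood at 188. The highest SR gene was Srsf5 at 148 CPM per kb, ahead of Hnrnpc, which binds runs of U, at 104, and Hnrnpa1 at 82.4. Srsf3, the smallest SR protein and also an mRNA export adaptor, stood at 69.8 CPM per kb and Srsf7, its close relative with a zinc knuckle, at 52.6. Srsf1, the founding member of the family, reached only 4.11 CPM per kb, and Hnrnpd, which binds AU-rich elements, 2.30. The most abundant genes also varied least: the coefficient of variation within groups was 20.6% for Hnrnpk, 21.3% for Hnrnpf and 22.7% for Hnrnpa2b1, against 101% for Srsf1 and 100% for Hnrnpll.

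**Figure D1:**
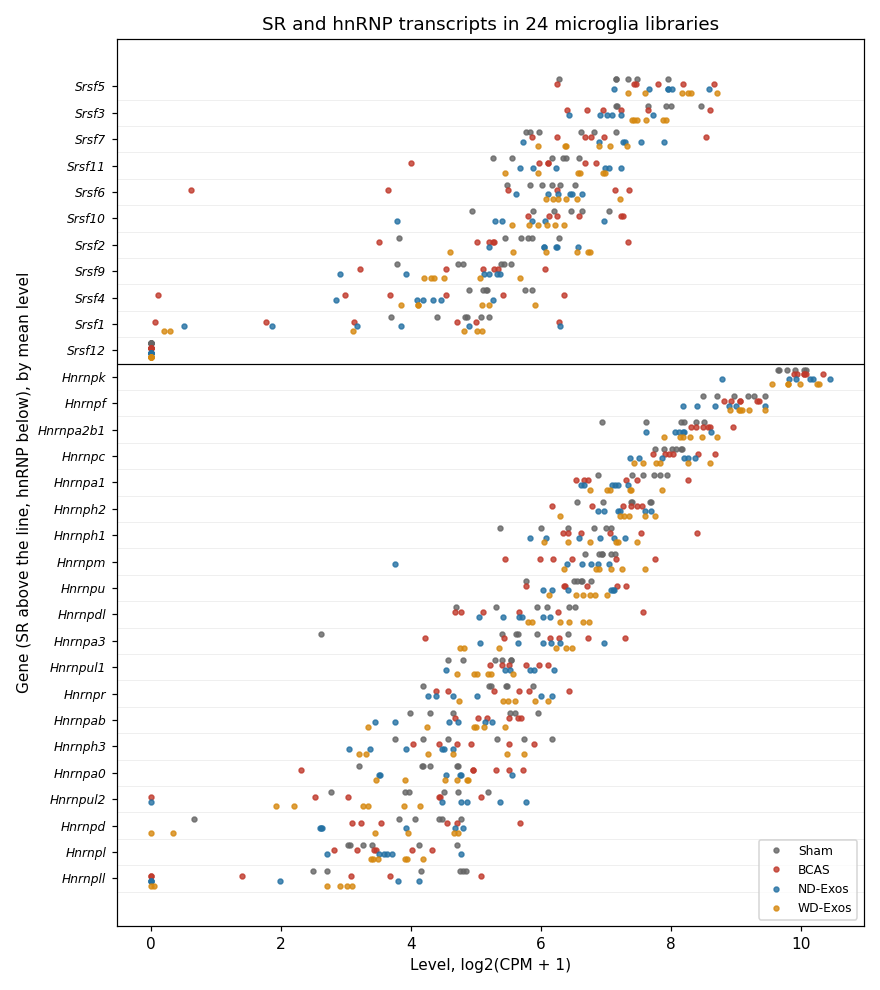
Level of each SR gene (above the line) and hnRNP gene (below it) in each library, as log2(CPM + 1) on the horizontal axis, with the genes in order of mean level within each family and points coloured by group. The 4 groups overlap in every row, Hnrnpk is the highest gene and Srsf12 is at 0 in all 24 libraries.

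Srsf12 was not detected: it had 0 counts in all 24 libraries, which allows up to 0.00469 CPM (3 counts over all libraries together, counting error only). Hnrnpll, known for splicing of the CD45 transcript in lymphocytes, was the only detected member with a mean under 10 CPM, at 9.19 CPM. It ranged from 4.66 to 27.8 CPM in Sham (median 21.4) and from 0 to 32.9 CPM in BCAS (median 4.55), and from 0 to 16.4 CPM in ND-Exos (median 1.47) and from 0 to 7.54 CPM in WD-Exos (median 6.03). It had a count in 18 of 24 libraries, and the libraries at 0 were 2 of BCAS, 3 of ND-Exos and 1 of WD-Exos, none of Sham. Hnrnpll passed no test (in BCAS against Sham the log2 fold change was -1.001 (SE 1.80), edgeR adjusted p = 1). Of the other members, Hnrnpd was seen in 23 libraries and Hnrnpul2 in 22, and 27 were seen in all 24. The 30 detected members also passed the filter on low counts and were tested.

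Some counts are uncertain because near-identical copies exist in the genome. In GENCODE release vM21, 12 members had at least 1 pseudogene transcript that matched them over 500 bases or more at 90% identity or above. Hnrnpa3 had 33 such copies, Hnrnpa1 14 and Hnrnpf 6. Hnrnpk and Hnrnpc had 2 each, and Srsf5, Srsf7, Srsf10, Hnrnpa2b1, Hnrnpdl, Hnrnph2 and Hnrnpr 1 each. The deposited estimates were fractional, as when reads are shared between genes, in 23 libraries for Hnrnpa3, 18 for Srsf9, 12 for Hnrnph3 and 11 for Hnrnpf. Copies and fractional estimates did not always go together. Srsf9 and Hnrnph3 had 0 such copies, while Hnrnpa1 was fractional in 3 libraries and Hnrnpk in 0. Values for the genes with copies or fractional estimates are given with that limit.

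The promoters of the members that the results below turn on are printed as the 250 bases before an annotated start site, read from RefSeq on GRCm38.p6, 5′ to 3′ on the strand of the gene. Srsf5 and Hnrnpdl are shown because they rose with an immediate early score, and Srsf10, Hnrnpa2b1 and Hnrnpul1 because they ranked among the 4 smallest p-values of the members in more than 1 comparison. Hnrnph1 did so too and is not printed, since it has 5 annotated windows. Hnrnpa2b1 has a pair of overlapping windows, and the upstream one is shown. Capitals mark the GC box (GGGCGG), the CCAAT box (CCAAT), the ETS motif (CCGGAAG) and the YY1 motif (AAGATGGC), on either strand.
Srsf5 (chr12:80945249-80945498, plus strand): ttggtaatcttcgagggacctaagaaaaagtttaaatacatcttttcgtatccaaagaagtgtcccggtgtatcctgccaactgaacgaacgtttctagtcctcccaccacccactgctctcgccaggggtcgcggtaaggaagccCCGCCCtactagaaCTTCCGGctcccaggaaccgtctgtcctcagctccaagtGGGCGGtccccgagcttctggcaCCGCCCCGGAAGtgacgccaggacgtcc
Hnrnpdl (chr5:100039223-100039472, minus strand): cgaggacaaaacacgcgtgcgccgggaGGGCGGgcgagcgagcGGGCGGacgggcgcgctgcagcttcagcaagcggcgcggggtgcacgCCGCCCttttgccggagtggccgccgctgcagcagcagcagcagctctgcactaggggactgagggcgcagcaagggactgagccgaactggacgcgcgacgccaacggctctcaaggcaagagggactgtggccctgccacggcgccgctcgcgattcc
Srsf10 (chr4:135855821-135856070, plus strand): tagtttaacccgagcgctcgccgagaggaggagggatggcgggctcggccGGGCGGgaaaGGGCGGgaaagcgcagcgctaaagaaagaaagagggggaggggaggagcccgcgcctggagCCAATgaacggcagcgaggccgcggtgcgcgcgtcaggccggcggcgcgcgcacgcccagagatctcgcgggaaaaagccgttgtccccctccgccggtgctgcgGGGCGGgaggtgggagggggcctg
Hnrnpa2b1 (chr6:51469895-51470144, minus strand): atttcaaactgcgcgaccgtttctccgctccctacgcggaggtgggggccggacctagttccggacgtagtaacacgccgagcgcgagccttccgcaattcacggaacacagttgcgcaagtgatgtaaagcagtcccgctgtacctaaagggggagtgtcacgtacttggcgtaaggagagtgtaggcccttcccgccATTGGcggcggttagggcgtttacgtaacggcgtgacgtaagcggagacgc
Hnrnpul1 (chr7:25754760-25755009, minus strand): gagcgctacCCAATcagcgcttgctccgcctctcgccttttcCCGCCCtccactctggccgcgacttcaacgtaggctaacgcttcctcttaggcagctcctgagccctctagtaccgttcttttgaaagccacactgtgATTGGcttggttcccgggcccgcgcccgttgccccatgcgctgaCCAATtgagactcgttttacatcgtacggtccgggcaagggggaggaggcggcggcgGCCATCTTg

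Srsf5 carried 3 GC boxes and 2 ETS motifs in this stretch, and 1 of each overlap in the run that starts at -28 from the start site. Hnrnpdl carried 3 GC boxes, Srsf10 carried 3 GC boxes and 1 CCAAT box, and Hnrnpa2b1 carried 1 CCAAT box and no GC box. Hnrnpul1 carried 3 CCAAT boxes, 1 GC box and 1 YY1 motif, which 3.05% of all windows of protein-coding genes held (2.44% of the members'). Counted over windows of 300 bases (250 before and 50 after a start site), 34 of 41 windows of the 29 members with an entry held a GC box (82.9%), against 46.2% of all 21263 windows of protein-coding genes. The ETS motif was in 24.4% of the members' windows and 11.6% of all, and the CCAAT box in 51.2% and 38.2%. A gene with several windows was counted once per window, so these windows are not independent. By gene, 24 of the 29 members held a GC box, 6 the ETS motif and 17 the CCAAT box. Motifs known from immediate early genes were in few windows of the members, as of all genes. The cyclic AMP response element TGACGTCA was in 0 of 41 member windows (2.23% of all) and the AP-1 site TGACTCA in 2.44% (4.66% of all). The CArG box, bound by serum response factor, was in 2.44% (1.52% of all). Counts this small do not set the members apart from all genes. TATAAA was in 9.76% of the members' windows and 12.6% of all. A match is a run of letters and not a measured binding site, and the lack of a match says only that the letters are not in that window. Srsf6 and Hnrnpm held the CRE without its last base (TGACGTC, which every full CRE also holds), 4.88% of member windows against 3.84% of all.

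BCAS was compared with Sham for the effect of the operation itself. No member passed the threshold, where 0% of all 10219 genes tested did (edgeR's quasi-likelihood test, Benjamini-Hochberg adjusted p under 0.05). Nor were the groups of any member free of overlap, as they were for 0.127% of all genes with BCAS higher and 0.245% with BCAS lower. DESeq2 and voom also called 0 of the 30 members. The members leaned to higher values in BCAS: 20 of 30 had a log2 fold change above 0, against 49.9% of all genes, with a median of 0.11 (all genes -0.003). Of the SR genes 7 of 10 were above 0 (median 0.09) and of the hnRNP genes 13 of 20 (median 0.15).

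Cell type markers also leaned in this comparison, with 0 of them past the threshold (edgeR). All 9 microglial markers were above 0 (median 0.18), 3 of them with an unadjusted p under 0.05, and they summed from 38371 to 46719 CPM in Sham (median 43305) and from 39947 to 55945 CPM in BCAS (median 50251). Of the border macrophage markers 0 of 8 were above 0 (median -1.22), of the oligodendrocyte markers 0 of 6 (median -1.58) and of the endothelial markers 0 of 3 (median -3.13). Border macrophage markers summed from 294 to 1567 CPM in Sham (median 369.7) and from 73.8 to 595 CPM in BCAS (median 397), and oligodendrocyte markers from 164 to 8503 CPM in Sham (median 325) and from 125 to 1331 CPM in BCAS (median 279). Mural cell markers summed to at most 0.0433 CPM in BCAS, against up to 981 CPM in Sham. When each Sham library was left out in turn, the median over the SR and hnRNP members stayed between 0.09 and 0.18, and over all libraries of both groups it lay between 0.02 (without BCAS replicate 2) and 0.20 (without BCAS replicate 4). The part of the markers in the members' values was not otherwise tested.

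Hnrnpa2b1 had the smallest p of the family. It ranged from 122 to 363 CPM in Sham (median 288) and from 315 to 493 CPM in BCAS (median 369.6). All 6 BCAS libraries lay above the Sham median, but the groups overlapped, since the highest Sham libraries reached into the BCAS range. The log2 fold change was 0.51 (SE 0.21, 95% interval 0.07 to 0.95), with an unadjusted p of 0.0215 and an adjusted p of 0.54 (edgeR). It was the only member with an unadjusted p under 0.05, 1 of 30, against 6.04% of all genes, and also the only one in DESeq2 and voom. In edgeR its unadjusted p was no longer under 0.05 without Sham replicate 4, Sham replicate 5 or BCAS replicate 6. Sham replicate 5 held its lowest value, and without that library the log2 fold change of Hnrnpa2b1 was 0.36. Hnrnph1, a G-run binder like Hnrnpf, ranged from 40.3 to 134 CPM in Sham (median 98.4) and from 80.1 to 336 CPM in BCAS (median 115), with a log2 fold change of 0.71 (SE 0.36, 95% interval -0.04 to 1.45). Only BCAS replicate 2 and replicate 1 stood above all Sham libraries.

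Srsf7 ranged from 53.8 to 141 CPM in Sham (median 79.5) and from 56.8 to 369.7 CPM in BCAS (median 104), a log2 fold change of 0.68 (SE 0.39, 95% interval -0.14 to 1.49). Its highest value again came from BCAS replicate 2, and the next BCAS library stood at 124 CPM, within the Sham range. Srsf5 ranged from 76.9 to 246 CPM in Sham (median 152) and from 75.2 to 405 CPM in BCAS (median 199), a log2 fold change of 0.50 (SE 0.31, 95% interval -0.15 to 1.15). The lowest BCAS library lay at the level of the lowest Sham library. Adjusted p-values were 0.883 for Hnrnph1 and 1 for both Srsf7 and Srsf5 (edgeR). These values depended on BCAS replicate 2: without it the log2 fold change of Srsf7 was 0.10, that of Hnrnph1 0.31 and that of Srsf5 0.25, and the median over members was 0.02. Hnrnpa2b1, higher in BCAS, and Srsf3, lower in BCAS (log2 fold change -0.74), then had an unadjusted p under 0.05 (edgeR). The p-values that missed the threshold do not show equal levels: for 10 of the 30 members the 95% interval lay inside a 2-fold change either way, and for the other 20 it did not.

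**Figure D2:**
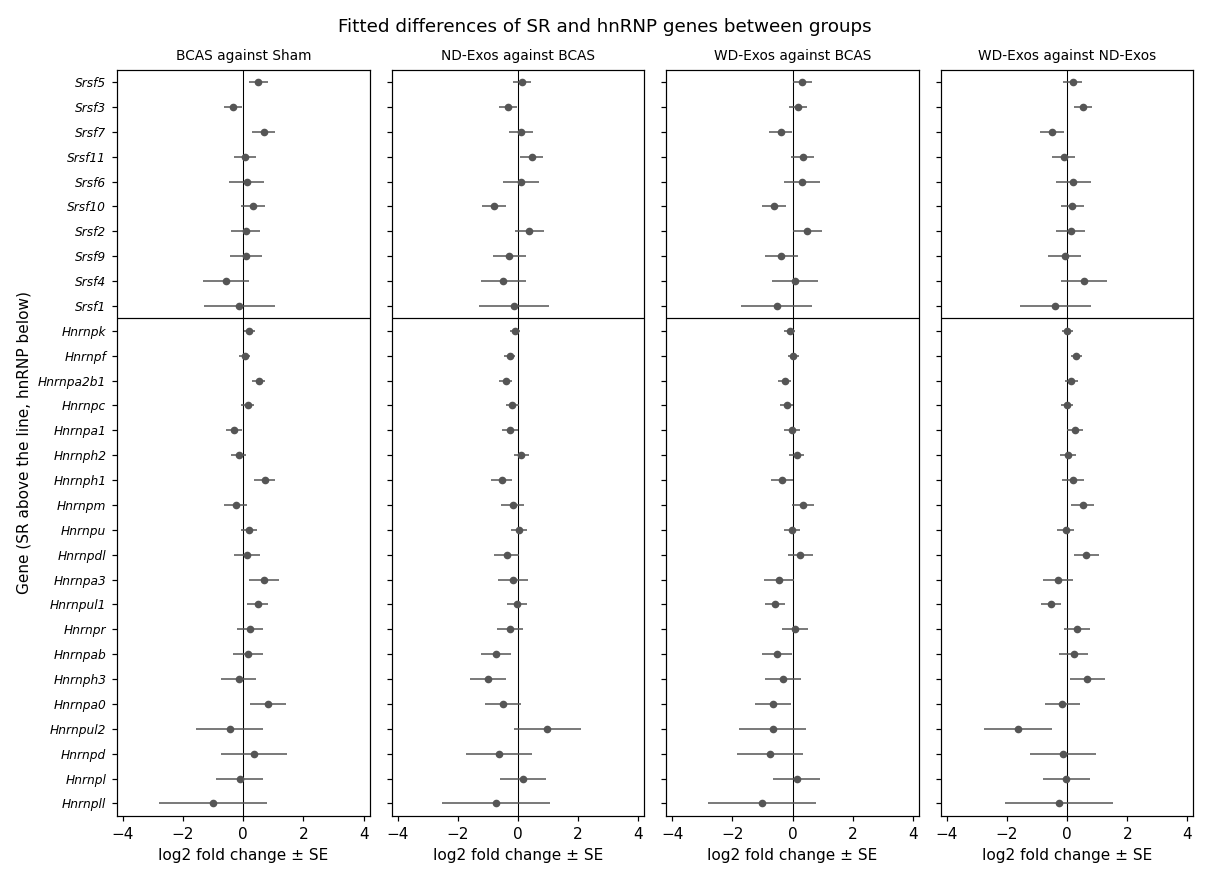
Fitted log2 fold change (point) with its standard error (bar) for each of the 30 tested members in the 4 comparisons, SR genes above the line and hnRNP genes below. Bars are short for abundant genes such as Hnrnpk and long for sparse ones such as Hnrnpll, and no member passed the threshold in any panel.

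In ND-Exos against BCAS, which asks what these exosomes added to the operation, the hnRNP genes leaned lower and the SR genes were split. Of 30 members 9 were above 0 and 21 below, with a median of -0.22 (50.4% of all genes above 0, median 0.01). Of the hnRNP genes 16 of 20 were below 0 (median -0.26), and of the SR genes 5 of 10 (median -0.02). No member passed the threshold, where 0.0196% of all genes did, and 0 had an unadjusted p under 0.05, against 4.47% of all genes. The groups of every tested member overlapped, while 0.0979% of all genes lay wholly higher in ND-Exos and 0.0881% wholly lower. DESeq2 and voom also called 0, and each gave 1 member, Srsf10, an unadjusted p under 0.05. This comparison and the next share their BCAS libraries with the first. Of the microglial markers 8 of 9 were also below 0 (median -0.13, 1 with an unadjusted p under 0.05), and they summed from 29976 to 52319.8 CPM in ND-Exos (median 44489). Markers of border macrophages (7 of 8), oligodendrocytes (5 of 6) and astrocytes (3 of 3) were above 0, with sums of 234 to 896, 81.3 to 4699 and 101 to 450.2 CPM in ND-Exos. Their part in the members' values was not tested.

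Srsf10, an SR-like protein that represses splicing when it is dephosphorylated, as in heat shock, ranged from 54.8 to 152 CPM in BCAS (median 85.0) and from 12.8 to 124 CPM in ND-Exos (median 49.2). One ND-Exos library, replicate 4, stood within the upper BCAS range, and the other 5 lay below the BCAS median. The log2 fold change was -0.81 (SE 0.40, 95% interval -1.64 to 0.02) (edgeR adjusted p = 1). Hnrnpa2b1 ranged from 195 to 390.0 CPM in ND-Exos (median 283) against the BCAS values above, and 5 of 6 ND-Exos libraries were below the BCAS median, a log2 fold change of -0.41 (SE 0.21, 95% interval -0.84 to 0.03). Hnrnph3, a shorter relative of Hnrnph1, ranged from 15.3 to 58.5 CPM in BCAS (median 27.1) and from 7.24 to 24.01 CPM in ND-Exos (median 17.7), with all 6 ND-Exos libraries below the BCAS median and the groups overlapping. Its log2 fold change was -0.98 (SE 0.59, 95% interval -2.22 to 0.25). Hnrnph1 ranged from 56.1 to 155 CPM in ND-Exos (median 107), a log2 fold change of -0.54 (SE 0.36, 95% interval -1.28 to 0.21), and of -0.15 without BCAS replicate 2. The adjusted p of all of these rounded to 1 (edgeR). Without BCAS replicate 2 the median over members was -0.11, and without BCAS replicate 6 it was -0.07. Without ND-Exos replicate 5 it was -0.14. In the fit without BCAS replicate 2, Hnrnpa2b1, lower in ND-Exos, had an unadjusted p under 0.05 (edgeR). So did Srsf2, which was higher in ND-Exos (log2 fold change 1.15). Without ND-Exos replicate 4 the log2 fold change of Srsf10 was -1.21. For 12 of the 30 members the 95% interval lay inside a 2-fold change.

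In WD-Exos against BCAS, 12 of 30 members were above 0 and 18 below, with a median of -0.14 (48.9% of all genes above 0, median -0.02). Of the hnRNP genes 14 of 20 were below 0 (median -0.23), while 6 of 10 SR genes were above 0 (median 0.14). No member passed the threshold, where 0% of all genes did, and 0 members had an unadjusted p under 0.05, against 3.71% of all genes. The groups overlapped for every tested member, while 0.117% of all genes lay wholly higher in WD-Exos and 0.0685% wholly lower. DESeq2 and voom called 0, and at an unadjusted p under 0.05 DESeq2 gave 1 member, Hnrnpul1, and voom 1, Srsf6. Without BCAS replicate 2 the median over members was 0.005, on the other side of 0, and Srsf2, Srsf3 and Hnrnpdl, all higher in WD-Exos, had an unadjusted p under 0.05. Without BCAS replicate 6 the median was -0.02, and without WD-Exos replicate 2 it was -0.07. Of the markers of other cells, 5 of 6 oligodendrocyte genes were higher and 6 of 8 border macrophage genes lower in WD-Exos, with 4 of 9 microglial genes higher. Their part in these values was not tested.

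Hnrnpul1, a protein related to the scaffold attachment factor Hnrnpu and known from the response to DNA damage, had the smallest p. It ranged from 36.3 to 67.9 CPM in BCAS (median 49.0) and from 25.2 to 46.4 CPM in WD-Exos (median 33.4). All 6 WD-Exos libraries lay below the BCAS median, and the groups overlapped between 36.3 and 46.4 CPM. The log2 fold change was -0.57 (SE 0.34, 95% interval -1.28 to 0.13) (edgeR adjusted p = 1). Srsf10 ranged from 46.1 to 81.2 CPM in WD-Exos (median 63.9), again with all 6 libraries below the BCAS median, and the log2 fold change was -0.63 (SE 0.40, 95% interval -1.46 to 0.20). Hnrnpa2b1 ranged from 236 to 415 CPM in WD-Exos (median 301), with 5 of 6 libraries below the BCAS median and a log2 fold change of -0.26 (SE 0.21, 95% interval -0.70 to 0.17). Hnrnpa0, which binds AU-rich inflammatory transcripts, ranged from 3.95 to 51.7 CPM in BCAS (median 34.4) and from 9.98 to 28.3 CPM in WD-Exos (median 23.5). All 6 WD-Exos libraries were below the BCAS median, with a log2 fold change of -0.65 (SE 0.60, 95% interval -1.89 to 0.60). Their adjusted p-values rounded to 1 (edgeR), and for 10 of 30 members the interval lay inside a 2-fold change.

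The last comparison set the libraries of the exosome groups, WD-Exos against ND-Exos, side by side. Of 30 members 17 were above 0 and 13 below, with a median of 0.07 (49.2% of all genes above 0, median -0.01). No member passed the threshold, where 0.0196% of all genes did, and 0 had an unadjusted p under 0.05, against 5.33% of all genes. Again the groups of all 30 overlapped, while 0.294% of all genes lay wholly higher in WD-Exos and 0.225% wholly lower. DESeq2 and voom called 0 members, and at an unadjusted p under 0.05 DESeq2 gave 1, Hnrnpul1, and voom 0. Of the microglial markers 7 of 9 were above 0 (median 0.08) and of the border macrophage markers 1 of 8 (median -1.79), and their part in the members' values was not tested. For 10 members the interval lay inside a 2-fold change.

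Srsf3 ranged from 85.2 to 209.9 CPM in ND-Exos (median 132) and from 167 to 241 CPM in WD-Exos (median 186). All 6 WD-Exos libraries lay above the ND-Exos median, and the highest ND-Exos library stood within the WD-Exos range. The log2 fold change was 0.52 (SE 0.30, 95% interval -0.10 to 1.14) (unadjusted p = 0.0925 and adjusted p = 1, edgeR). Hnrnpf ranged from 289 to 698 CPM in ND-Exos (median 442) and from 479.6 to 694 CPM in WD-Exos (median 537), a log2 fold change of 0.31 (SE 0.18, 95% interval -0.08 to 0.69), with all 6 WD-Exos libraries above the ND-Exos median. ND-Exos replicate 5 held the highest Hnrnpf value of all 24 libraries, and without it the log2 fold change was 0.47. Hnrnpul1 ranged from 22.2 to 72.6 CPM in ND-Exos (median 50.5), and all 6 WD-Exos libraries were below its median, a log2 fold change of -0.53 (SE 0.34, 95% interval -1.24 to 0.17). Hnrnpdl, a relative of Hnrnpd, ranged from 32.2 to 69.6 CPM in ND-Exos (median 50.3) and from 54.7 to 105 CPM in WD-Exos (median 81.4), a log2 fold change of 0.63 (SE 0.42, 95% interval -0.24 to 1.51). All 6 WD-Exos libraries were above the ND-Exos median for Hnrnpdl, and the groups overlapped from 54.7 to 69.6 CPM.

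**Figure D3:**
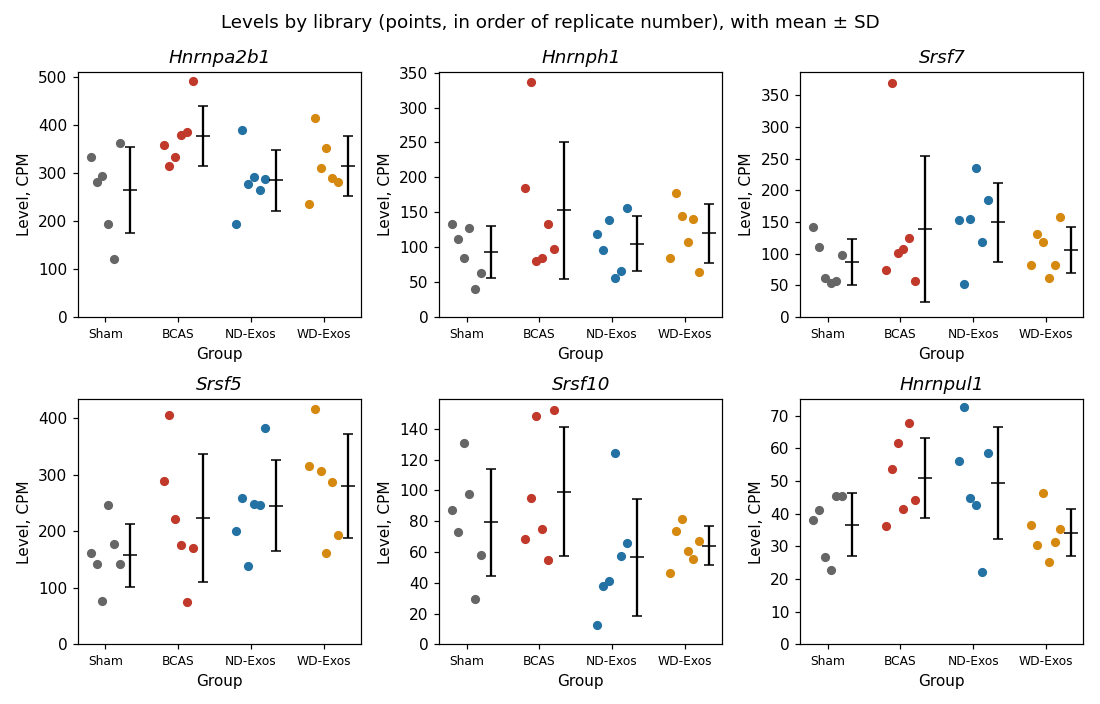
Level in CPM (vertical axis, from 0) of 6 members in each library (points) by group, with the group mean ± SD (bar beside the points, n = 6). Hnrnpa2b1 is higher in BCAS than in Sham on average with overlapping points, and 1 BCAS library, replicate 2, holds the highest value of Hnrnph1 and of Srsf7.

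The rest of the splicing machinery, from lists of the spliceosome and its regulators, also had 0 genes past the threshold in all 4 comparisons (edgeR). In BCAS against Sham, 10 of the 11 U1 and Sm proteins, which form the particles that recognise splice sites, were below 0, with a median of -0.28, and 1 had an unadjusted p under 0.05. The 22 U2, SF3 and 3′ splice site factors had a median of -0.06 (9 above 0), the 35 tri-snRNP and catalytic factors 0.12 (19 above 0), and the 24 tested SR-related proteins -0.02 (11 above 0). The 14 genes for SR protein kinases and transport had a median of 0.56 (8 above 0), and the 39 tested other splicing regulators one of 0.05 (21 above 0). In ND-Exos against BCAS the medians of these lists lay between -0.27 (SR protein kinases and transport) and 0.16 (SR-related proteins). In WD-Exos against BCAS they lay between -0.33 (SR protein kinases and transport) and 0.04 (other splicing regulators), and in WD-Exos against ND-Exos between -0.04 (SR-related proteins) and 0.07 (U1 and Sm proteins).

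The genes of these lists with the smallest p are given beside the members. Qk, an RNA-binding regulator of splicing, had a mean of 1173 ± 258 CPM in BCAS and 621 ± 99.7 in Sham (SD, n = 6), and the log2 fold change was 0.92, SE 0.19, edgeR adjusted p = 0.166. It passed in DESeq2 (adjusted p = 8.51e-05) and in edgeR without BCAS replicate 2 (adjusted p = 0.0328). Ptbp3, of the polypyrimidine tract binding family, had a mean of 57.2 ± 10.2 CPM in BCAS and 124 ± 39.6 in Sham (SD, n = 6) (-1.12, SE 0.29, edgeR adjusted p = 0.356), and passed in DESeq2 (adjusted p = 0.00525). Snrpb, a core Sm protein, stood at 244 ± 56.9 CPM in ND-Exos and 363 ± 65.7 in BCAS (SD, n = 6) (-0.57, SE 0.16, edgeR adjusted p = 0.577), and passed in DESeq2 (adjusted p = 0.00485). With WD-Exos it stood at 282 CPM (-0.37, SE 0.16, edgeR adjusted p = 1). Ewsr1, of the FET family, had log2 fold changes of -1.09 in ND-Exos against BCAS (edgeR adjusted p = 0.615) and 1.29 in WD-Exos against ND-Exos (edgeR adjusted p = 0.512). Sf3b5, a small SF3B subunit, stood at 39.4 ± 14.2 CPM in WD-Exos and 67.1 ± 19.8 in BCAS (SD, n = 6) (-0.77, SE 0.33, edgeR adjusted p = 1), and Ptbp1 at 268 ± 54.4 CPM in WD-Exos and 129.8 ± 92.3 in ND-Exos (SD, n = 6) (1.04, SE 0.37, edgeR adjusted p = 0.548).

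Many extremes of the family fell in BCAS replicates 2, 5 and 6. BCAS replicate 2 was the highest of all 24 libraries for 9 of the 30 members, namely Srsf2, Srsf3, Srsf6, Srsf7, Srsf9, Hnrnpdl, Hnrnph1, Hnrnpll and Hnrnpu, and the lowest for Hnrnph2. BCAS replicate 6 was the highest for 8 others, namely Srsf4, Srsf10, Hnrnpa1, Hnrnpa2b1, Hnrnpa3, Hnrnpc, Hnrnpm and Hnrnpr, and the lowest for Srsf6 and Hnrnpa0. BCAS replicate 5 was the lowest for 5 members and the highest for 2. How many of all genes tested had their extremes in these libraries was not counted, so these counts may not be particular to the family. In BCAS replicate 2, Srsf2 (the nuclear speckle protein SC35) stood at 159.9 CPM, against at most 37.6 CPM in the other 5 BCAS libraries.

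These 3 libraries also lay at the ends of a score of immediate early and heat shock genes, whose transcripts are made quickly after stimulation or handling of cells. The score is the mean log2(CPM + 1) of 27 tested genes such as Fos, Jun and Hspa1a, and its relation to the members was examined after the data had been seen. It ran from 4.58 to 5.66 in Sham (median 4.90) and from 3.84 to 7.79 in BCAS (median 4.90). With ND-Exos it ran from 5.47 to 5.90 (median 5.72), and with WD-Exos from 4.51 to 7.76 (median 6.26). BCAS replicate 2 and WD-Exos replicate 2 were highest, and BCAS replicates 5 and 6 lowest, so the groups overlapped and the BCAS and WD-Exos libraries were spread far more widely than those of Sham and ND-Exos.

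A slope on the score within groups was fitted for all genes in edgeR. Of the 30 members 2 rose past the threshold, where 0.421% of all genes did, and 0 fell, where 0.0881% of all genes did. Of the 43 genes that rose, 12 belong to the score itself. Srsf5 gained 0.39 on the log2 scale per unit of score (SE 0.08, edgeR adjusted p = 0.0339). It stood at 417 CPM in WD-Exos replicate 2 and 405 in BCAS replicate 2, the highest of all libraries, and at 75.2 CPM in BCAS replicate 5, the lowest. Hnrnpdl gained 0.47 per unit (SE 0.11, edgeR adjusted p = 0.0433), with 189 CPM in BCAS replicate 2 and 24.6 in BCAS replicate 5.

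At an unadjusted p under 0.05 there were 7 of 30 members, against 7.07% of all genes. Besides Srsf5 and Hnrnpdl they were Srsf2 (slope 0.40), Srsf6 (0.46), Hnrnph1 (0.32), Srsf7 (0.25) and, in the opposite direction, Hnrnph2 (-0.28, SE 0.08, edgeR adjusted p = 0.12). Hnrnph2 is a paralog of Hnrnph1 on the X chromosome, and it stood at 70.6 CPM in BCAS replicate 2, its lowest value, where Hnrnph1 had its highest at 336 CPM. The median slope was 0.22 over the 10 SR genes, -0.01 over the 20 hnRNP genes and 0.02 over all genes tested.

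Both calls were lost when certain single libraries were left out, that of Hnrnpdl more often than that of Srsf5. Without BCAS replicate 2 neither passed, where 0.0955% of all genes rose and 0.00955% fell, and 3 members had an unadjusted p under 0.05 against 5.62% of all genes. The slope of Srsf5 was 0.38 (edgeR unadjusted p = 0.00119, adjusted p = 0.247). That of Hnrnpdl was 0.32 (edgeR unadjusted p = 0.026, adjusted p = 0.699). The slope of Srsf7 was then -0.01 and that of Srsf2 0.17. Srsf5 kept a slope of 0.33 to 0.42 when each library was left out in turn and passed in 19 of 24 such fits. Leaving out BCAS replicate 2, BCAS replicate 4, BCAS replicate 5, WD-Exos replicate 2 or WD-Exos replicate 4 ended the call. Hnrnpdl passed in 5 of 24. Without both BCAS replicate 2 and WD-Exos replicate 2, the pair farthest from the median score, the slopes were 0.38 for Srsf5 (edgeR adjusted p = 0.476) and 0.39 for Hnrnpdl (edgeR adjusted p = 0.711). With the score as a covariate in the group comparisons, 0 members passed in each of the 4. The part that handling of the cells had in these values was not tested.

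**Figure D4:**
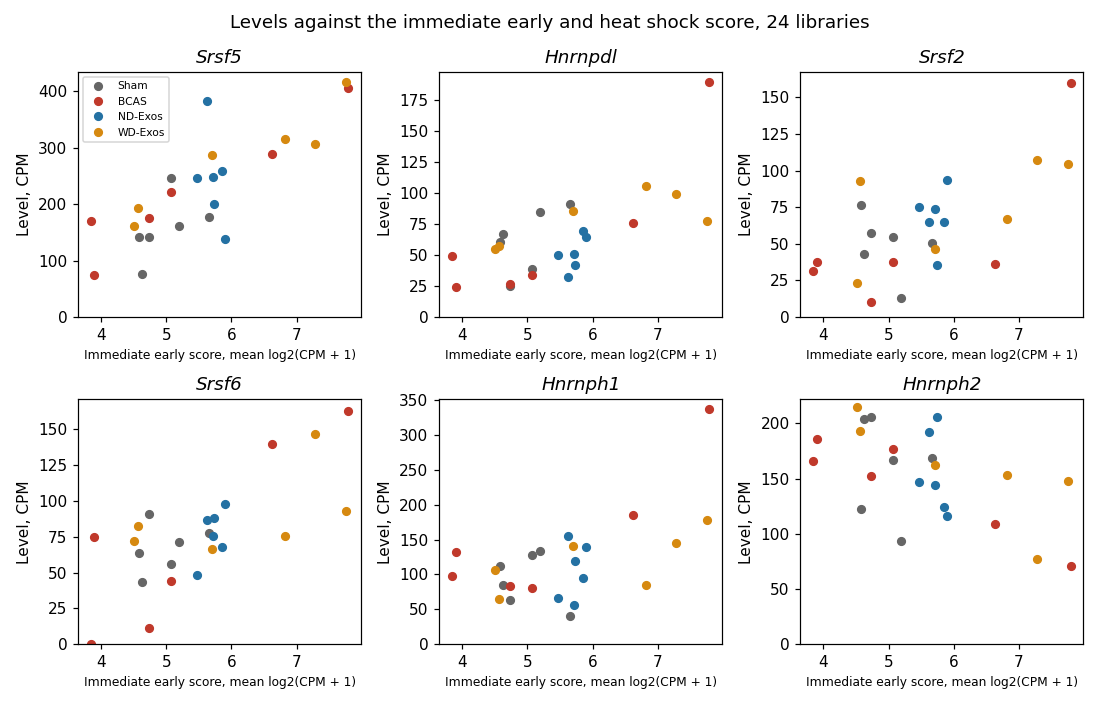
Level in CPM (vertical axis, from 0) of 6 members against the immediate early and heat shock score (horizontal axis, mean log2(CPM + 1) of 27 genes) in 24 libraries, coloured by group. Srsf5 stands higher in libraries with a high score in BCAS and WD-Exos, Hnrnph2 stands lower, and for Hnrnpdl, Srsf2 and Hnrnph1 the BCAS library with the highest score lies far above the others.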

How the data were processed

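RNA was measured in sorted microglia of 4 groups of 6 libraries. The authors deposited expected counts for Entrez genes without scaling across libraries, and 76.8% of genes with values were whole in every library. Per the labels, complementary DNA was made by Smart-seq2. Aligner, counting tool and build: not given in the sources used here. Symbols and biotypes came from RefSeq GRCm38.p6. The member list, the other gene lists and the tests were chosen with earlier results of these data known.

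Counts were rounded and tested in edgeR 4.0.16 (R 4.3.3): filterByExpr with a minimum of 10 counts left 10219 genes, TMM factors were 0.936 to 1.17, and 1 robust quasi-likelihood fit with 4 group means used all 24 libraries, with Benjamini-Hochberg adjustment over all genes and a threshold of 0.05. The 95% intervals use 20 residual degrees of freedom. Levels per kb use the median length of the principal coding transcripts of GENCODE vM21. Named members were, in each comparison, the 4 with the smallest p, and over all libraries the 3 highest of each family and those under 10 CPM. On simulated data for BCAS against Sham (2 simulations of 10219 genes, 200 changed, all above 20 CPM), the fit recovered 11.5% of the 2-fold changes and 48% of the 4-fold changes. The changed genes were drawn from all genes, so these rates are not the members' own. The median coefficient of variation estimated by edgeR was 0.52 for the members tested and 0.81 for genes of 10 to 1000 CPM. Alternatives were RLE size factors, other filters, DESeq2 1.42.0, limma 3.58.1 (voom), the replicate number as a block, covariates, 2 groups only, and leaving out each library. Copies were sought with blastn 2.17.0. Hnrnpa1l2-ps2, named a pseudogene, was left out.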

Additional observations from a re-analysis of the deposited data

Results flagged for a closer look

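Over 18 items in 4 groups each, 7 of 72 groups held a library that stood apart from the other 5. The items were the detected members named by rule, those with an unadjusted p under 0.05 on the immediate early score (edgeR), and the sum of each family. Some items were thus chosen on a score that was highest in BCAS replicate 2, and the SR sum contains members also counted singly. The 7 of 72 can therefore not be set against a chance rate. In BCAS, replicate 2 stood far above the next library for Hnrnpdl (189 against 75.9 CPM), Srsf2 (159.9 against 37.6), Srsf7 (369.7 against 124) and Hnrnpll (32.9 against 11.8). The sum of the SR genes stood at 1791 CPM in the same library, against 908 in the next. Hnrnpk in BCAS replicate 4 stood at 1296 CPM against 1074, and Srsf6 in WD-Exos replicate 3 at 147 against 93.1. BCAS replicate 2 also had the highest immediate early score, 7.79, and the part of that score in these values was not tested.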

How the results depend on the processing

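The count of members past the threshold stayed at 0 in each of the 4 comparisons under every alternative run, leaving out each library included. The median over members moved by less than 0.173, its spread between single libraries. In every comparison except ND-Exos against BCAS the median itself was smaller than that spread, so this does not show that it held. With each library left out in turn, it ran from 0.02 to 0.20 in BCAS against Sham and from -0.31 to -0.07 in ND-Exos against BCAS. It ran from -0.19 to 0.005 in WD-Exos against BCAS and from 0.01 to 0.15 in WD-Exos against ND-Exos. The count over all genes did move. DESeq2 called 609 genes in BCAS against Sham, 510 in ND-Exos against BCAS, 409 in WD-Exos against BCAS and 471 in WD-Exos against ND-Exos, and voom called 9, 1, 1 and 4. With the immediate early score as a covariate, added after seeing the data, the first comparison gave 12 genes. Detected genes as a covariate gave 1 in ND-Exos against BCAS, and only the libraries of the 2 groups gave 1 in WD-Exos against ND-Exos. When each library was left out in turn, the counts ran from 0 to 32 (32 without BCAS replicate 2), 1 to 3, 0 to 0 and 2 to 5. The number of members called on the score, 2 with all libraries, ran from 0 to 2 (0 when BCAS replicate 2, BCAS replicate 4, BCAS replicate 5 or WD-Exos replicate 4 was left out), and was 0 without BCAS replicate 2 and WD-Exos replicate 2 together. The cause was not tested. The labels do not say that the replicate numbers pair the samples. Deviations of same-numbered libraries correlated at -0.04 to 0.07, and 4 of 24 matched their own number best. Such low correlations do not show that the libraries were unpaired. With the replicate block the pairing left 0 members called in all 4 comparisons, and 0, 2, 0 and 2 genes. Intervals wider than a 2-fold change for most members limit what these libraries can show, and reads amplified without molecular identifiers overstate the number of molecules counted.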
